A study of Drosophila melanogaster with 6 samples.

Results

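Glia ensheathe and feed the neurons of the fly nervous system, and a layered sheet of them separates the brain from the blood. In this blood-brain barrier an outer perineurial layer takes up sugar, and an inner layer of subperineurial cells seals the brain with septate junctions and pumps foreign compounds out. Inside the barrier, cortex glia wrap cell bodies, wrapping and ensheathing glia enclose axons and neuropil, and astrocyte-like glia clear transmitters at synapses. Transcripts of 10 genes that mark these cells were followed: repo, loco, alrm, nrv2, wrapper, moody, Gli, Nrx-IV, Mdr65 and Tret1-1. They were taken by symbol from a table of 11836 genes, and all 10 were found.

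The samples were adult heads of Drosophila melanogaster, 3 libraries of flies homozygous for the mutation P18 of the splicing factor gene Prp31 and 3 libraries of control flies whose genotype is given as white. All flies were 2 days old and raised on the same food under regular light at 25 °C, with 50 heads pooled for a library, and both sexes were used in the series. The labels do not say how many males and females a pool held, whether the mutants also carry a white allele, or whether replicates came from separate cultures, so p-values measure the spread between these libraries only. The study models a human retinal degeneration caused by mutations in the counterpart of this gene, and the comparison asks whether glial transcripts of the head differ between mutant and control.

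Values are FPKM, reads scaled by gene length and by the mapped total of the library, so levels of genes can be compared within a library. Between libraries they also depend on a few abundant transcripts. The top 10 genes made up 15.9% (control replicate 2) to 22.2% (mutant replicate 3) of the column total. Column totals ran from 348791 to 402452 FPKM. Fold changes are log2 differences, mutant minus control, of FPKM + 1, a scale that understates changes of low genes. They were tested with limma, and a gene is called where its p adjusted over all 8465 genes tested by the Benjamini-Hochberg method is under 0.05. In these data 299 genes, 3.53% of those tested, were called higher and 661, 7.81%, were called lower in mutant heads. The split was 360 and 454 with median-ratio scaling and 384 and 467 with quantile normalization. One library, control replicate 3, differed from its group: across genes it correlated at 0.980 and 0.978 with control replicates 1 and 2 in log2 level, and that pair at 0.996 with each other. Without it 838 genes (9.90%) were called higher and 1383 (16.3%) lower. Results that rest on it are therefore given with and without it.

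Of the 10 members, all of which passed the filter on low values, 2 fell and 0 rose in mutant heads. Those that fell were Mdr65, a drug efflux pump of the barrier, to 52.9% of its control mean, and alrm, an astrocyte marker, to 61.0%. For comparison, 7.81% of all genes tested were called lower and 3.53% higher. Without control replicate 3, 5 members fell and 1 rose, beside 16.3% and 9.90% of all genes. The median log2 fold change of the members was -0.19, beside -0.066 for all genes tested, and -0.12 with median-ratio scaling, which set the median of all genes to about 0. Before adjustment, 3 were lower and 0 higher at a limma p under 0.05, beside 1625 and 689 of the 8465 genes tested. In 3 members every mutant library lay below every control library, and in 0 every mutant library lay above, where the shares over all genes tested were 21.8% and 9.46%. In bulk heads, fewer cells of a type and less RNA per cell cannot be told apart.

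**Figure D1:**
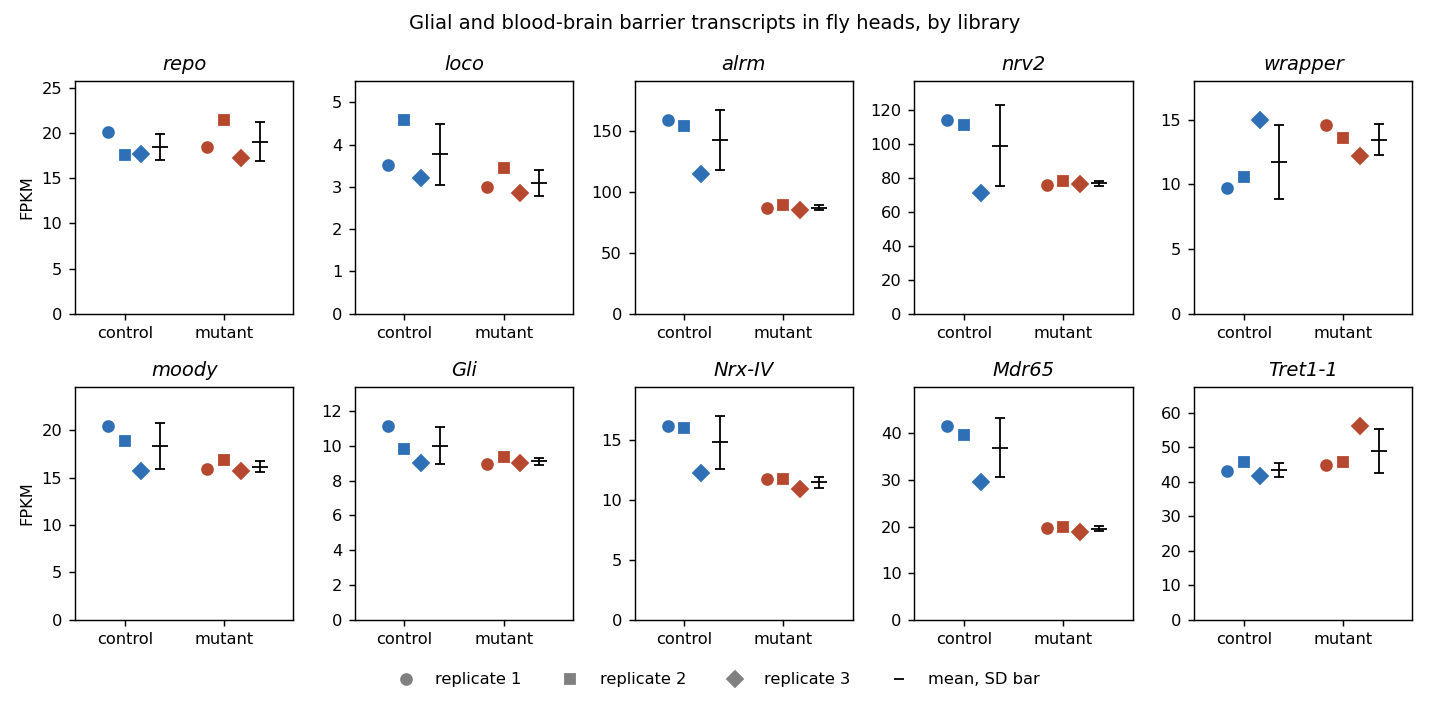
FPKM of the 10 genes in each library (vertical axes, each starting at 0), for control (blue) and mutant (red) heads; symbols mark replicates 1 to 3, and the black mark and bar give the mean and SD of 3 libraries. Mdr65, alrm and Nrx-IV show no overlap between groups, and control replicate 3 sits apart from the other controls in most panels.

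Neither pan-glial gene passed the test, with repo near its control mean and loco at 82.2% of it. repo (FBgn0011701, arm 3R, 18236192 to 18239602, plus strand) encodes the homeodomain transcription factor found in nearly all glia and is the standard marker of the class. Its mutant libraries had 18.5, 21.5 and 17.2 FPKM and its control libraries 20.2, 17.6 and 17.7 FPKM. The groups overlapped, and the log2 fold change was 0.04 with a 95% interval from -0.20 to 0.27 (SE 0.10, limma adjusted p = 0.839). The 183 exonic bases that repo shares with a gene on the opposite strand, and the 1032 that loco shares with an antisense RNA gene, cannot be assigned where strand was not used in counting. loco (FBgn0020278, 3R, 22619968 to 22639387, minus strand) encodes a regulator of G protein signalling that acts with moody in the barrier. It was the lowest member, with 2.99, 3.45 and 2.86 FPKM in mutants and 3.52, 4.59 and 3.20 FPKM in controls. The groups overlapped, with a log2 fold change of -0.21 (interval -0.49 to 0.07, limma adjusted p = 0.303). Without control replicate 3 every mutant lay below both controls, and the change was -0.30 (adjusted p = 0.11), not called.

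The astrocyte marker alrm was the most abundant member and fell. It encodes a leucine-rich repeat protein of astrocyte-like glia (FBgn0039332, 3R, 25381065 to 25382781, minus strand). Mutant libraries had 86.7, 88.9 and 85.3 FPKM, and control libraries 159, 154 and 115 FPKM. The groups did not overlap, the mutants lay within a CV of 2.09%, and the lowest control was replicate 3. The log2 fold change was -0.69 (SE 0.13, limma adjusted p = 0.0179), and it was -0.84 without control replicate 3 (adjusted p = 0.00033). The call was lost without any 1 of the other 5 libraries (adjusted p 0.053 to 0.0712), with fold changes still between -0.71 and -0.61. alrm has no intron and lies inside the span of Fur1 on the same strand without sharing exon bases. Fur1 was low, at 1.21 ± 0.0576 and 1.49 ± 0.114 FPKM (mean ± SD, n = 3 each), and was not called.

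Of the genes for glia that wrap neurons, neither passed the test over 6 libraries, and both depended on control replicate 3. nrv2 (FBgn0015777, 2L, 6789770 to 6798862, minus strand) encodes a beta subunit of the sodium pump, which is also needed for septate junctions. Its mutant libraries had 75.8, 78.5 and 76.4 FPKM, while its controls had 114, 111 and 71.4 FPKM. Control replicate 3 lay below all mutants and the other controls far above them, which gave a log2 fold change of -0.33 (interval -0.74 to 0.08, limma adjusted p = 0.27). Without that library it was -0.55 (SE 0.07, adjusted p = 0.00178), a call. wrapper (FBgn0025878, 2R, 22379637 to 22382675, plus strand) encodes an immunoglobulin family protein on the surface of glia that wrap neurons. It had 14.6, 13.6 and 12.2 FPKM in mutants and 9.68, 10.6 and 15.0 FPKM in controls, again with control replicate 3 beyond the mutants. The log2 fold change was 0.20 (interval -0.16 to 0.56, adjusted p = 0.427), and 0.38 without control replicate 3 (adjusted p = 0.0261), which made wrapper the member called higher in that setting.

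Among genes of the subperineurial seal, none passed the test over 6 libraries. moody (FBgn0025631, X, 2044292 to 2050120, minus strand) encodes the G protein-coupled receptor that keeps the barrier closed. Its levels were 15.9, 16.8 and 15.7 FPKM in mutants and 20.5, 18.8 and 15.7 FPKM in controls. Control replicate 3 fell just below the lowest mutant, and the log2 fold change was -0.16 (interval -0.40 to 0.07, limma adjusted p = 0.334). Without it the change was -0.27 (adjusted p = 0.0416). Gli (FBgn0001987, 2L, 15756002 to 15762758, minus strand) encodes Gliotactin, a cholinesterase-like protein at the corners where 3 cells meet. It had 8.93, 9.34 and 9.04 FPKM in mutants and 11.1, 9.83 and 9.03 FPKM in controls. The log2 fold change of Gli was -0.12 (interval -0.32 to 0.08, adjusted p = 0.407), and it was not called without control replicate 3 either (adjusted p = 0.145).

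Nrx-IV (FBgn0013997, 3L, 12146519 to 12156990, plus strand) encodes a core transmembrane protein of septate junctions. Mutant libraries had 11.7, 11.7 and 10.9 FPKM and control libraries 16.1, 16.0 and 12.2 FPKM. The groups did not overlap, although control replicate 3 came close to the mutants. The log2 fold change was -0.33 (SE 0.11, interval -0.59 to -0.07), with an unadjusted p of 0.0186 and a limma adjusted p of 0.103, so it did not pass. Without control replicate 3 it was -0.46 (adjusted p = 0.00489).

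The transporters of the barrier differed from each other. Mdr65 (FBgn0004513, 3L, 6240500 to 6245746, minus strand) encodes an ABC transporter related to mammalian P-glycoprotein, which exports foreign compounds at the subperineurial face. Mutant libraries had 19.8, 19.9 and 18.9 FPKM and control libraries 41.6, 39.6 and 29.7 FPKM. Every mutant lay below every control, control replicate 3 included. The log2 fold change was -0.87 (SE 0.13, interval -1.17 to -0.58, limma adjusted p = 0.00549), and it was called in all 17 alternatives, between -1.02 without control replicate 3 and -0.57 with yolk transcripts as a covariate. Tret1-1 (FBgn0050035, 2R, 11665768 to 11674782, plus strand) encodes a trehalose transporter of the perineurial layer, trehalose being the main blood sugar of the fly. It had 44.8, 45.7 and 56.2 FPKM in mutants and 43.1, 45.6 and 41.6 FPKM in controls. The groups overlapped, mutant replicate 3 was highest, and the log2 fold change was 0.16 (interval -0.08 to 0.40, adjusted p = 0.357).

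**Figure D2:**
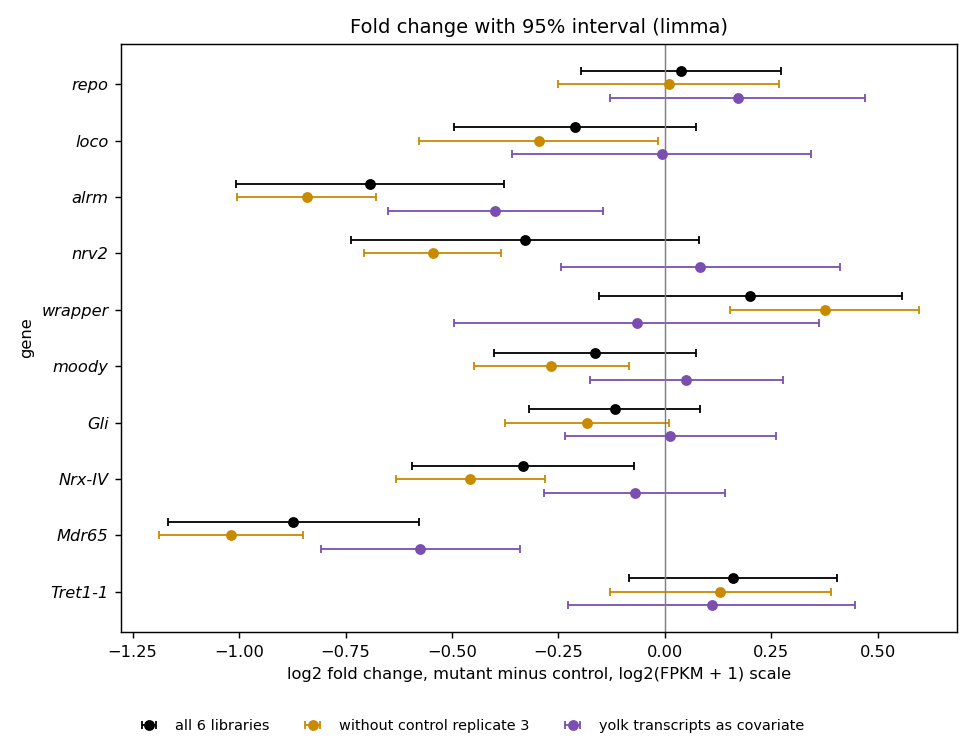
Log2 fold change of each gene (horizontal axis, mutant minus control, log2(FPKM + 1) scale) with its 95% interval from limma, over all 6 libraries (black), without control replicate 3 (amber) and with yolk transcripts as a covariate (violet). Mdr65 and alrm lie below 0 in each, while nrv2, moody, Gli and wrapper change side with the covariate.

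The order of levels was the same at the top in both groups. In controls alrm averaged 143 ± 24.4 FPKM, followed by nrv2 at 98.9 ± 23.9 and Tret1-1 at 43.4 ± 2.03 FPKM (SD, n = 3 each). Mdr65 followed them in both groups, at 37.0 ± 6.40 FPKM in controls, where its range met that of Tret1-1, and at 19.5 ± 0.555 FPKM in mutants, where it met that of repo instead. The middle of the order was not resolved in controls, since the ranges of repo, moody, Nrx-IV and wrapper each overlapped that of the gene next below. In mutants each of repo, moody, wrapper, Nrx-IV and Gli lay clear of the gene next below. wrapper stood below Nrx-IV in controls and above it in mutants. The spread among mutant libraries was 1.85% to 13.0% of the mean, and among control libraries 4.67% to 24.2%.

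Ratios between members within a library were compared to see whether they changed alike, 12 ratios chosen after the values were seen. Mdr65 per moody, both subperineurial, was 1.24, 1.18 and 1.20 in mutants and 2.03, 2.10 and 1.89 in controls. The groups were far apart, and control replicate 3 stood with the other controls in this ratio. Mdr65 per repo was 1.03 ± 0.0914 in mutants and 2.00 ± 0.293 in controls, and alrm per repo 4.60 ± 0.416 and 7.70 ± 1.15. Gli per moody, by contrast, was 0.563 ± 0.00974 and 0.547 ± 0.0272 (SD, n = 3 each), with overlapping groups and an exact two-sided permutation p of 0.5. In 6 of the 12 ratios the groups did not overlap, each with an exact two-sided permutation p of 0.1, the smallest that 3 libraries against 3 can give, and 0.2 after adjustment over the 12. The other such ratios were Nrx-IV and loco per repo, and Nrx-IV per moody. None of the ratios could pass 0.05 in this design, and a ratio does not tell which of its 2 genes moved.

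Control replicate 3 lay off both other controls on the side of the mutant mean in 8 of the 10 members, all but repo and Tret1-1. The same held in 65.7% of all genes tested. Transcripts made in females moved the same way. The sum of the yolk protein genes Yp1, Yp2 and Yp3 and of fit, a gene of the female head fat body, was 3604 and 3995 FPKM in control replicates 1 and 2 and 20100 FPKM in control replicate 3. In the mutants it was 20530, 17520 and 46810 FPKM. All 4 female markers were higher in mutants at an unadjusted p under 0.05, beside 689 of the 8465 genes tested. Of the 4, 0 were called by limma over 6 libraries and all 4 without control replicate 3, beside 3.53% and 9.90% of all genes. Of 3 genes listed as male markers, only msl-2 matched the table. It had 11.8, 11.9 and 9.62 FPKM in mutants and 12.7, 11.7 and 10.5 FPKM in controls. The share of males in a pool cannot be read from this gene.

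With the mean log2 level of the yolk protein genes as a covariate, Mdr65 changed by -0.57 in log2 (SE 0.10, limma adjusted p = 0.0209) and stayed called. The value of alrm was -0.40 (SE 0.11, adjusted p = 0.0892) and was no longer called. nrv2, moody and Gli took values above 0 (0.083, 0.050 and 0.013) and wrapper one below 0 (-0.066), and the other 8 members than Mdr65 and alrm had adjusted p of at least 0.564. The covariate was 12.61, 12.39 and 13.85 in mutants and 10.08, 10.21 and 12.59 in controls, replicates 1 to 3 in order. Only control replicate 3 lay within the mutant range, so the covariate can also take up part of a difference between genotypes. It leaves few degrees of freedom, and with it 1 member was called lower and 0 higher, beside 3.66% and 2.14% of all genes.

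**Figure D3:**
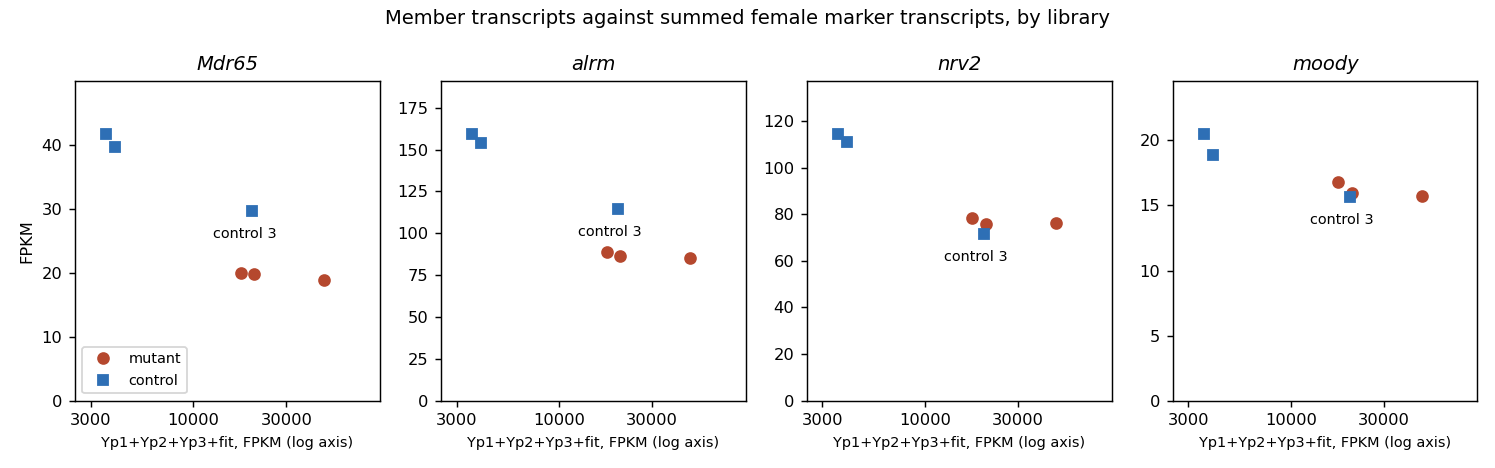
FPKM of Mdr65, alrm, nrv2 and moody (vertical axes from 0) in each library against the summed FPKM of Yp1, Yp2, Yp3 and fit (log axis), for mutant (red circles) and control (blue squares) heads. Control replicate 3 lies above the mutants for Mdr65 and alrm and just below them for nrv2 and moody.

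The members that fell differ in position and gene structure. The 10 genes lie on 5 chromosome arms, with 3 on 3R, 2 each on 2L, 2R and 3L, and 1 on X. Mdr65 and Nrx-IV share arm 3L with Prp31, at distances of 8.913 and 3.002 Mb. alrm, repo and loco lie on 3R, the other arm of the same chromosome. For all of these genes, alleles carried on the mutant chromosome cannot be told apart from the mutation. Alleles on other chromosomes that differ between mutant and control flies cannot be told apart from it either. Prp31 encodes a splicing factor, and of the members that fell alrm has 0 introns and Mdr65 has 11 (BDGP6 annotation). Nrx-IV also has 11, while repo has 1. Whether splicing had a part in these differences was not tested.

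Other genes of septate and tricellular junctions fell in part. Of 30 tested, 4 fell and 0 rose, beside 7.81% and 3.53% of all genes, and 28 had a log2 fold change below 0, with a median of -0.24. Below 0 were also 64.1% of all genes tested. hoka, entered in the table as CG13704 (FBgn0035583, 3L, 4898900 to 4900869), encodes a protein of smooth septate junctions, the type found in gut epithelia. It had 0.041, 0.043 and 0.022 FPKM in mutants and 4.34, 4.17 and 7.90 FPKM in controls. Mutant libraries were thus near 0 throughout, and the change of -2.60 in log2 (SE 0.20, limma adjusted p = 0.000292) stayed called in all 16 alternatives in which it was tested. As hoka shares its arm with Prp31, an allele carried on the mutant chromosome cannot be told apart from the mutation. The other 3 that fell were M6 (-0.50), which encodes a proteolipid family protein of tricellular junctions, udt (-0.44) and cold (-0.33), which encodes a Ly6 family protein of septate junctions. M6, udt and cold lost their calls without any 1 library other than control replicate 3 (adjusted p 0.0699 to 0.146), under median-ratio scaling and quantile normalization (0.0538 to 0.0705) and with the yolk covariate (0.192 to 0.319). Without control replicate 3, 15 fell and 0 rose, beside 16.3% and 9.90% of all genes.

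None of 7 genes of the G protein pathway downstream of moody was called by limma, although all 7 had values below 0 (median -0.25). Of these, 3 had an unadjusted p under 0.05. Over all 8465 genes tested, 64.1% were below 0, and 1625 were lower and 689 higher at that p. Ggamma1, which encodes a G protein gamma subunit, averaged 216 ± 21.2 FPKM in mutants against 261 ± 19.8 FPKM in controls, and Gbeta13F, a beta subunit gene, 52.4 ± 2.93 and 56.9 ± 2.89 FPKM (SD, n = 3 each). Of the 7 genes, 4 fell and 0 rose without control replicate 3, beside 16.3% and 9.90% of all genes.

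Transporters of barrier and other glia were divided: among the 23 tested 2 rose and 3 fell, with a median of -0.20, where 3.53% of all genes rose and 7.81% fell. pippin, entered as CG4797, encodes a sugar transporter of the barrier and rose from 9.49 ± 1.18 to 14.4 ± 0.329 FPKM (SD, n = 3 each; log2 fold change 0.56, limma adjusted p = 0.0103). Oatp74D, an importer of the steroid hormone ecdysone, rose by 0.37 (adjusted p = 0.0351). Oatp33Ea, an organic anion transporter gene, had -0.53 (0.0107), MFS3 -0.41 (0.0302) and LpR2, a lipophorin receptor gene, -0.40 (0.0262). Oatp74D, MFS3 and LpR2 lost their calls without any 1 library other than control replicate 3 (adjusted p 0.0505 to 0.142). Oatp33Ea lost its call without control replicate 1 (adjusted p = 0.0554), and with the yolk covariate 0 rose and 0 fell, at adjusted p of 0.095 to 0.262 for these 5. Without control replicate 3, 2 rose and 13 fell, beside 9.90% and 16.3% of all genes.

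Mdr50, which encodes an ABC transporter of the same family as Mdr65, had a mean under 1 FPKM and so was not tested in the comparison; it was singled out after its values were seen. It had 1.55, 1.59 and 1.24 FPKM in mutants and 0, 0.015 and 0.014 FPKM in controls, with no overlap. With no filter on low values its log2 fold change was 1.28 (SE 0.07, limma adjusted p = 0.000169). The direction was thus opposite to that of Mdr65, at a level that stayed below that of Mdr65 in every library. For Mdr50 too, an allele that differs between mutant and control flies cannot be told apart from the mutation.

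None of 13 further genes of astrocyte-like, ensheathing and cortex glia was called by limma, with a median of -0.26. At an unadjusted p under 0.05, 6 were lower and 1 higher, beside 1625 and 689 of the 8465 genes tested. The largest rise in the list was 0.36 in log2. Median-ratio scaling called 1 higher and 0 lower, beside 4.25% and 5.36% of all genes, as did quantile normalization, beside 4.54% and 5.52%. The yolk covariate also gave 1 higher and 0 lower, beside 2.14% and 3.66%. With the replicate block 1 was higher and 1 lower, beside 4.80% and 8.69%. Eaat1, the glial glutamate transporter gene, came nearest to the threshold, with 66.9, 67.7 and 59.1 FPKM in mutants and 104, 105 and 74.7 FPKM in controls (log2 fold change -0.53, limma adjusted p = 0.0578). The most abundant of them, Obp44a, had 932 ± 32.3 and 1163 ± 77.9 FPKM, and Gs2, the gene of a glutamine synthetase, 283 ± 24.9 and 326 ± 43.7 FPKM (SD, n = 3 each). Without control replicate 3, 7 fell and 0 rose, beside 16.3% and 9.90% of all genes. Of 11 engulfment genes 1, Crk, fell and 0 rose over 6 libraries, beside 7.81% and 3.53% of all genes. It averaged 24.4 ± 1.38 FPKM in mutants against 37.9 ± 2.67 FPKM in controls, with a change of -0.61 in log2 (SE 0.08) at a limma adjusted p of 0.00418. Crk encodes an adaptor that links engulfment receptors to the cytoskeleton, and it was called in all 17 alternatives. NimC4, the gene of a receptor for dying cells, had -1.18 in log2 but did not pass (limma adjusted p = 0.0682), with 7.7, 17.8 and 8.6 FPKM in mutants and 30.8, 32.3 and 16.4 FPKM in controls. The groups overlapped through mutant replicate 2 and control replicate 3, and without either library NimC4 was called (adjusted p 0.0226 and 0.0111). Mmp1, a matrix metalloproteinase gene, had -0.38 at an adjusted p of 0.0501, just over the threshold. With it and NimC4, 3 engulfment genes were lower and 0 higher without mutant replicate 2, beside 5.62% and 2.02% of all genes. In the fit without control replicate 3, 3 were lower and 1 higher, beside 16.3% and 9.90%. Of 6 fate and growth factor genes tested 0 were called by limma, and 0 were at an unadjusted p under 0.05. gcm and gcm2, the switch genes of embryonic gliogenesis, were under 1 FPKM in every library. bnb and htl, a fibroblast growth factor receptor gene, were the most abundant of that list, with 299 ± 38.3 and 346 ± 51.1 FPKM for bnb and 5.72 ± 0.424 and 5.61 ± 0.648 FPKM for htl (mutant and control, SD, n = 3 each).

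**Figure D4:**
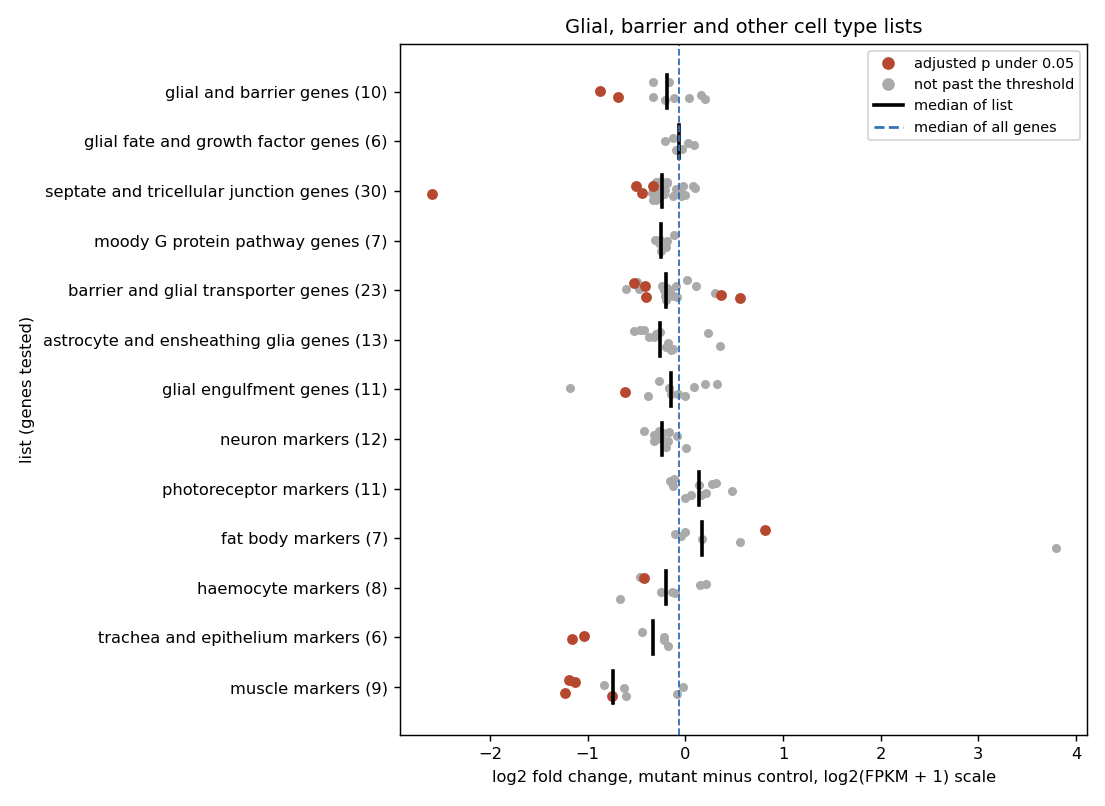
Log2 fold changes (horizontal axis, mutant minus control, log2(FPKM + 1) scale) of the genes tested in each list, with called genes in red, list medians as black bars and the median of all 8465 genes as a dashed line. Medians of the glial lists and of the neuron markers lie between -0.26 and -0.06, that of muscle markers at -0.75.

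Markers of other head tissues were counted in the same way, beside 7.81% of all genes lower and 3.53% higher over 6 libraries. The shares were 16.3% and 9.90% without control replicate 3. At an unadjusted p under 0.05, 1625 of the 8465 genes tested were lower and 689 higher. Of 12 neuron markers, led by nSyb, Syt1 and Syx1A, 0 were called by limma, with 3 lower and 0 higher at an unadjusted p under 0.05. Their median of -0.24 lay within the range of the glial lists, -0.26 to -0.06. Their summed level was 191 to 254 FPKM in mutants and 237 to 287 FPKM in controls. Of them 3 fell and 0 rose without control replicate 3. Of 11 photoreceptor markers, led by ninaE, Arr2 and Arr1, 0 were called, and 0 were at an unadjusted p under 0.05 (median 0.14, 22480 to 28630 against 19010 to 22380 FPKM). Here 1 rose and 0 fell without control replicate 3, and the median turned to -0.064. Of 9 muscle markers, led by Act57B, Mlc2 and Mhc, 4 fell and 0 rose (median -0.75, 1220 to 1623 against 1864 to 3536 FPKM). Only 1 of these, the actin gene Act88F, was called without any 1 of the other 5 libraries, with no filter, under both other scalings and with the yolk covariate, where the median was -0.18, and 7 fell without control replicate 3. Of 6 trachea and epithelium markers, led by verm, serp and shg, 2 fell and 0 rose (median -0.33, 77.5 to 98.9 against 110 to 189 FPKM). Neither was called when control replicate 1, control replicate 2, mutant replicate 1 or mutant replicate 3 was left out. The count was 0 with the yolk covariate (median -0.0081) and 3 without control replicate 3. Epithelia form septate junctions of their own. Of 8 haemocyte markers, led by Cg25C, crq and vkg, 1, Hml, fell (181 to 206 against 216 to 286 FPKM). Hml lost its call when control replicate 1, mutant replicate 2 or mutant replicate 3 was left out (adjusted p up to 0.084), and 4 fell without control replicate 3. Of 7 fat body markers, led by Rfabg, Desat1 and Lsp2, 1, to, rose (698 to 1146 against 406 to 861 FPKM). The call of to was lost without control replicate 1 or without mutant replicate 1 (adjusted p up to 0.0615), and 4 rose without control replicate 3. In neuron, muscle, trachea and epithelium, and haemocyte markers control replicate 3 had the lowest sum of the controls. In photoreceptor and fat body markers it had the highest. Sums follow the most abundant genes. By gene, it lay below both other controls in 6 and above both in 4 of 11 photoreceptor markers. For haemocyte markers these counts were 3 and 4 of 8, and for fat body markers 2 and 5 of 7. They were 8 and 1 of 12 neuron, 8 and 0 of 9 muscle, and 6 and 0 of 6 trachea and epithelium markers. Over all genes tested the shares were 43.8% and 39.7%. No marker of these lists was at 0 in any library. The part of these tissues in the differences of the glial genes was not tested.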

How the data were processed

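RNA of adult fly heads was measured in 3 Prp31 mutant and 3 white control libraries. The authors deposited FPKM per gene and library. The submitters' processing notes name CASAVA 1.8, STAR 2.5.2b and build BDGP6; the sources used here do not name the program that gave FPKM, its gene models or its use of strand. FPKM depend on the library total, so a few abundant transcripts can shift all others. The filter was a mean FPKM of 1 over the 6 libraries. Mutant and control values of log2(FPKM + 1) were compared in R 4.3.3 by limma 3.58.1 with a variance trend and Benjamini-Hochberg adjustment over 8465 genes, at a threshold of 0.05.

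All 10 members, and 165 of the 170 list symbols, matched the table, 8 of them through current symbols and gene identifiers. The rule for named genes took the members, up to 4 called genes of each pathway list by fold change or else its 2 most abundant, and the 3 most abundant of each marker list. Outside it, Fur1, Mdr50, Oatp74D, Eaat1, NimC4, Mmp1, gcm, gcm2, Act88F, Hml and to were named after their values were seen. The members and lists were chosen with earlier results of these data known. Alternatives covered the pseudocount, filter, scaling, prior, weights, the replicate block and each library left out. A covariate of yolk protein transcripts and ratios between members were chosen after seeing the data. Reads per library are known only as an average, so counting error per gene was not computed.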

Additional observations from a re-analysis of the deposited data

How the results depend on the processing

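The members called were 0 higher and 2 lower, Mdr65 and alrm, under pseudocounts of 0.1 and 0.5, both filters, both other scalings, no variance trend and a robust prior. They became 1 higher and 5 lower with library weights, beside 13.3% and 25.6% of all genes. With the yolk covariate they were 0 higher and 1 lower, Mdr65, and their median turned from -0.19 to 0.0026. Signs reversed with that covariate for Gli (0.013), moody (0.050), nrv2 (0.083) and wrapper (-0.066), and for repo without mutant replicate 2 (-0.048), where its values with 1 library left out ran up to 0.104. With 1 library left out, 0 to 1 members were higher and 1 to 5 lower; alrm lost its call without any library but control replicate 3, without which nrv2, moody, Nrx-IV and wrapper gained one. Over all genes the 299 higher and 661 lower became 1128 and 2170 with library weights, 181 and 310 with the yolk covariate, and 417 lower with a filter of 5 FPKM, where fewer genes were tested. With 1 library left out they were 144 to 838 higher and 268 to 1383 lower. Median-ratio scaling gave 360 higher and 454 lower and quantile normalization 384 and 467, as it moved the median of all genes from -0.066 to about 0. With the replicate number as a block, 406 genes were higher and 736 lower, and 0 and 2 members; it changed no other call among the members. Deviations from the group means of mutant and control libraries with the same number correlated at -0.0113, 0.210 and 0.318, and not every library correlated best with its own number, so the numbers were not used as pairs. With library weights 19 of 30 junction, 14 of 23 transporter and 8 of 13 astrocyte and ensheathing genes were lower. So were 6 of 7 G protein and 4 of 11 engulfment genes, where 25.6% of all genes tested were lower. In that setting 3 transporter, 2 engulfment and 1 astrocyte and ensheathing genes were higher, beside 13.3% of all genes. With a filter of 5 FPKM 0 transporters were lower, since the 3 called were not tested. The cause of the other moves was not tested. Depth per library is unknown, which limits what can be said of genes at low levels, such as Mdr50.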
